A study of Mus musculus with 18 samples.

Results

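Eosinophils sorted from the small intestine of wild-type (WT) mice are compared here with those of mice labelled as knockouts of Ahrr, the gene of the aryl hydrocarbon receptor repressor. The members are the samples whose column name in the deposited expression table begins with one of these genotypes, 6 WT and 6 Ahrr knockout, which makes 12 of the 18 samples of the series. The other 6 samples are labelled Ahr knockout. They appear below where their values set a level for single genes, in the order of the group medians, and in fits that are named as using them. The study asked what the aryl hydrocarbon receptor does in intestinal eosinophils, and its text gives no result on the Ahrr knockout. Each sample is a bulk RNA sequencing library of sorted cells, and the authors deposited its expression after a variance-stabilizing transformation, in log2 units. All mice were C57BL/6, with 3 females and 3 males of each genotype, and the methods give an age of 6 to 14 weeks for the mice of the study. The cells were sorted as CD11b+MHC-II-SiglecF+SSChi and their RNA was extracted at once. This gate holds no step on Ly6G, the neutrophil surface marker. WT and Ahr knockout mice were neither littermates nor cohoused, and nothing is said on this for the Ahrr mice. The allele of the Ahrr knockout is not given in the sources used here, so it is not known which bases were removed. Samples are called by genotype, sex and number (F1 to F3, M1 to M3), and p-values measure the spread between these samples.

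AHR is a ligand-activated transcription factor of the bHLH-PAS family that pairs with ARNT and binds DNA elements with the core GCGTG. Ahrr is one of its targets: the repressor protein it encodes also pairs with ARNT, competes for the same elements and so closes a feedback loop. Ligands of AHR reach the gut with the diet and from microbes, and Cyp1a1, Cyp1b1, Tiparp and Nqo1 are its best known targets there.

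The deposited values could be turned back into counts, which gives the depth. The total count of the WT females was 6330492, 5485843 and 3842977 for F1 to F3, and that of the WT males 8149200, 6075394 and 5969425 for M1 to M3. In the Ahrr knockout the females had 10119323, 8788867 and 12046933 counts and the males 10764352, 8815187 and 10623789. Every Ahrr knockout sample had a higher total count than every WT sample, so the total count separated the genotypes. The size factors, which scale the samples, overlapped, at 0.997 in WT M1 and 0.931 in knockout F2. Results with counts thinned to the total of the shallowest sample are given below, and the part of depth was not tested further. WT F3, the shallowest library, had a count for 20244 genes, against 15146 to 16526 in the other WT samples and 15598 to 17236 in the knockout. Xist, the RNA of the inactive X chromosome, lay between 23199.4 and 32733.2 normalized counts (counts divided by the size factor of the sample) in the 6 samples labelled female and between 18.7 and 46.9 in the 6 labelled male. The Y-linked Ddx3y lay at 1.2 or below in the females and at 719.7 or above in the males, so the labelled sex matched in all 12 samples.

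The transcript of Ahrr was not lower in the samples labelled Ahrr knockout. Ahrr (Entrez 11624, chr13:74211118-74292331) had 819.0 to 1280.6 normalized counts in WT (median 1046.6) and 925.0 to 1888.1 in the Ahrr knockout (median 1281.3). The groups overlapped, and 3 of 6 knockout samples lay above the highest WT sample. In the limma fit the difference, always given as Ahrr knockout minus WT on the variance-stabilized log2 scale, was 0.28 ± 0.18 (SE, n = 6 and 6; adjusted p = 0.683), with a 95% interval from -0.10 to 0.66. A count over the whole gene cannot show the loss of a part of it, such as an exon, and the table holds no values per exon. In the Ahr knockout, Ahrr lay between 0.0 and 9.4, far under both other groups. The samples are therefore called "labelled Ahrr knockout" or, for short, Ahrr knockout, as the label has it.

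The promoters of Ahrr and of Cyp1b1 are shown as those of the gene named in the label and of an AHR target with clear counts here. Each runs from 250 bases before to 50 after the start of the gene, 5′ to 3′ on the strand of the gene, from RefSeq on GRCm38.p6. Ahrr is at chr13:74292282-74292581 on the minus strand, and Cyp1b1 at chr17:79715012-79715311 on the minus strand. Capitals mark matches to GCGTG, the core that AHR with ARNT binds, on either strand. Ahrr holds 3 matches, 107, 82 and 27 bases before the start, and Cyp1b1 holds 1, on the other strand, 76 bases before the start. Of the other targets, Cyp1a1 and Tiparp hold 1 each and Nqo1 holds 0. The same letters occur in 32.5% of all 27025 promoters of this length, and in 51.2% of the 9272 promoters of tested genes, so a match describes the sequence and no more.
Ahrr: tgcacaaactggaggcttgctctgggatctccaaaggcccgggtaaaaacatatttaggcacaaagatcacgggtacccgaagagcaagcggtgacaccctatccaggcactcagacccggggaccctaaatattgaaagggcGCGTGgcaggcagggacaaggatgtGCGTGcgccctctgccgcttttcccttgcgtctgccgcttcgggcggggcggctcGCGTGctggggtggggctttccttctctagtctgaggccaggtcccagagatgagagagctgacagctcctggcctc
Cyp1b1: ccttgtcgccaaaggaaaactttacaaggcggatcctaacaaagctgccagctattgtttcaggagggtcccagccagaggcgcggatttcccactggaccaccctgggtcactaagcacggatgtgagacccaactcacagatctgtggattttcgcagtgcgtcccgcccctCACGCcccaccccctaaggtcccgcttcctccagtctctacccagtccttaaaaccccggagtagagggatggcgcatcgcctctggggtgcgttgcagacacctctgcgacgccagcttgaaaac

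The targets of AHR did not pass the test between WT and the Ahrr knockout, and their values spread widely. Cyp1b1, a P450 enzyme, had 348.6 to 1133.6 normalized counts in WT (median 735.6) and 552.8 to 1338.6 in the knockout (median 845.9), a difference of 0.41 ± 0.30 (95% interval -0.23 to 1.05, limma adjusted p = 0.707). Tiparp, an ADP-ribosyltransferase that also limits AHR, had 3466.9 to 7336.7 in WT (median 5773.5) and 2639.6 to 9760.9 in the knockout (median 4336.7), a difference of -0.15 ± 0.28 (-0.75 to 0.44; adjusted p = 0.868). Nqo1, a quinone reductase, differed by 0.11 ± 0.16 (-0.22 to 0.45; adjusted p = 0.831) and Ahr itself by -0.20 ± 0.26 (-0.77 to 0.36; adjusted p = 0.820). The groups overlapped for all 4 genes, and for Ahr and Tiparp the highest knockout value was in F1 and the lowest in M3. Cyp1a1 had no count in any of the 6 WT samples, where a count of 0 allows up to 3.0 to 6.2 normalized counts (3 counts, counting error only). In the knockout it had 28, 18 and 11 counts in F3, M1 and M3, 1 in F2 and 0 in the other samples. F3, M1 and M3 are also the samples with the highest sum of enterocyte markers (given below), and the part of this in Cyp1a1 was not tested.

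Of the list of AHR core genes (receptor, partners, chaperones, coactivators), 14 of 15 could be tested, 7 higher in the knockout and 7 higher in WT. By limma 0 passed the adjusted threshold, and 0 had an unadjusted p under 0.05. Of 24 AHR target genes 16 could be tested: 11 were higher in the knockout, with a median difference of 0.13 (0.08 centred on the median), 0 passed by limma and 1 had an unadjusted p under 0.05. That gene was Gsta1, a glutathione transferase, with 6.2 to 48.7 in WT and 30.7 to 250.5 in the knockout (1.10 ± 0.29, adjusted p = 0.40), again highest in F3, M1 and M3. Another list holds genes that the study itself picked as AHR-dependent from these samples, so it is no independent evidence: 19 of 21 were tested, 8 higher in the knockout and 11 in WT, 0 passed and 4 had an unadjusted p under 0.05. Across all tested genes 0.0779% passed, 7.39% had an unadjusted p under 0.05 and 51.7% were higher in the knockout, with a median of 0.01. But the share higher in the knockout was 44.1% centred on the median, 45.1% with quantile normalization and 41.7% with a minimum mean of 3 above the lowest value, with medians of -0.03, -0.03 and -0.04. With voom on the recovered counts, all genes that passed were among the 4 named further on, none of them from these lists.

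The difference between both knockouts was tested with all 18 samples in 1 limma fit, in which 14.8% of 11468 genes passed. Ahrr knockout minus Ahr knockout was 5.11 ± 0.17 for Ahrr (adjusted p = 4.2e-14), 4.48 ± 0.26 for Cyp1b1 (adjusted p = 2.8e-10), 2.45 ± 0.24 for Tiparp (adjusted p = 9.3e-07) and 1.93 ± 0.14 for Nqo1 (adjusted p = 2.4e-08). Each of the 6 Ahrr knockout samples lay above each of the 6 Ahr knockout samples for these 4 genes. Ahr itself was lower in the Ahrr knockout than in the Ahr knockout, at -0.82 ± 0.23 (adjusted p = 0.0258). Its median was 23973.4 normalized counts in the Ahr knockout, 13774.3 in WT and 11604.9 in the Ahrr knockout. In a limma fit of WT and the Ahr knockout alone, Ahr knockout minus WT was 0.61 ± 0.19 for Ahr (adjusted p = 0.0557). Cyp1b1 lay between 0.8 and 4.7 in the Ahr knockout, Tiparp between 620.5 and 1080.6, and Nqo1 between 26.4 and 64.9.

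**Figure D1:**
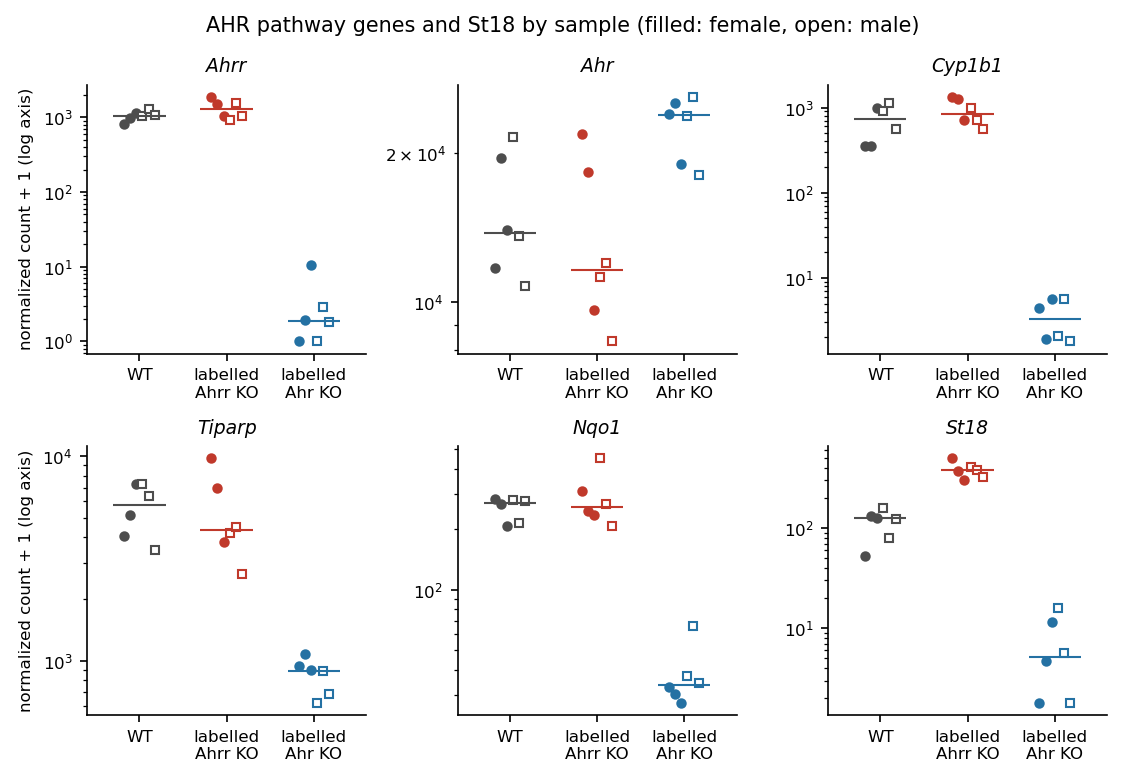
Normalized counts plus 1 on a log axis for 6 genes in WT, Ahrr knockout and Ahr knockout samples, 6 each; filled points are females, open points males, and the line is the median. Ahrr, Cyp1b1, Tiparp and Nqo1 overlap between WT and the Ahrr knockout and lie lower in the Ahr knockout; St18 lies highest in the Ahrr knockout.

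Few genes passed the test in the fit of 12 samples, and those that did rose in the Ahrr knockout. Of 11546 genes tested with limma, 9 (0.0779%) passed an adjusted p of 0.05, all 9 higher in the knockout. In this fit no gene passed in the other direction (0 of 11546). The count of 9 was not stable: leaving out 1 sample at a time gave 4 to 25, with 25 and 2 of them higher in WT without knockout F1, while sample weights gave 18 with 3 higher in WT and the Paneth covariate 13 with 5. At an unadjusted p under 0.05 there were 853 genes (7.39%), 486 of them higher in the knockout (4.21%). The 9 genes were S100a9, S100a8, Csf3r, C3, Hp, Cd14, Tlr2, St18 and Fam177a2. The 6 and 6 values did not overlap for 53 genes (0.459%), 32 higher in the knockout and 21 higher in WT, and 7 of the 9 were among the 32. With voom on recovered counts and with log2(normalized count + 1), 4 genes passed in each case: S100a9, S100a8, C3 and St18. With counts thinned to the total of the shallowest sample 6 passed, these 4 with Hp and Csf3r.

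S100a8 and S100a9 had the largest differences of the 9 on the deposited scale, while Hp, at few counts in WT, had a larger one with voom (2.99, against 2.57 for S100a8 and 2.46 for S100a9). S100a8 and S100a9 encode the subunits of calprotectin, a metal-binding protein that neutrophils and monocytes store in the cytosol. S100a9 (Entrez 20202, chr3:90692630-90695721) had 114.3 to 309.7 normalized counts in WT (median 174.7) and 678.2 to 1810.4 in the knockout (median 866.7). S100a8 (Entrez 20201, chr3:90669071-90670034) had 62.6 to 138.9 in WT (median 98.1) and 407.2 to 1274.3 in the knockout (median 535.3). For both genes every knockout sample lay above every WT sample, with knockout F2 highest. The ratio of means was 5.45 for S100a9 (difference 2.10 ± 0.19, adjusted p = 0.00022) and 6.29 for S100a8 (2.06 ± 0.22, adjusted p = 0.000667), each higher in 6 of 6 knockout samples. The ratio of S100a9 was 5.31 in females and 5.69 in males, and that of S100a8 6.26 and 6.34. Both genes passed in all 12 fits that leave out 1 sample and in all 20 other alternatives, with the difference of S100a9 between 1.56 and 2.46 and that of S100a8 between 1.41 and 2.57.

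Csf3r, the receptor for G-CSF and so for the growth factor of neutrophils, also rose. Csf3r (Entrez 12986, chr4:126023441-126044975) had 280.1 to 541.9 normalized counts in WT (median 405.8) and 742.3 to 1681.8 in the knockout (median 909.5). The groups did not overlap, and knockout F1 was highest. The difference was 1.18 ± 0.20 (adjusted p = 0.0426, ratio of means 2.51, higher in 6 of 6). It passed in 2 of 12 fits without 1 sample and in 11 of 20 other alternatives, with adjusted p up to 0.323 and a difference of 1.02 or more in each.

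C3 and Hp encode plasma proteins of the acute phase: C3 is the central component of complement, which many cell types also make, and haptoglobin, the product of Hp, binds free haemoglobin and is stored in neutrophil granules. C3 (Entrez 12266, chr17:57203967-57228136) had 39.2 to 123.4 normalized counts in WT (median 50.9) and 167.3 to 327.1 in the knockout (median 269.2). Hp (Entrez 15439, chr8:109575128-109579172) had 1.3 to 26.8 in WT (median 9.4) and 48.7 to 126.8 in the knockout (median 67.7). Neither gene overlapped between the groups, and WT F1 was the highest WT sample for C3. The difference of C3 was 1.43 ± 0.17 (adjusted p = 0.00219, ratio of means 3.95, higher in 6 of 6) and that of Hp 1.21 ± 0.19 (adjusted p = 0.0276, ratio 6.17, higher in 6 of 6). C3 passed in all 12 fits without 1 sample and in 16 of the 19 other alternatives that tested it. Hp passed in 4 of 12 and in 7 of 19, at few counts in WT.

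Cd14 and Tlr2 are receptors for bacterial products: CD14 hands lipopolysaccharide to TLR4 and lipopeptides to TLR2. Cd14 (Entrez 12475, chr18:36725064-36726815) had 16.7 to 68.8 normalized counts in WT (median 45.2) and 62.0 to 243.9 in the knockout (median 165.3). Tlr2 (Entrez 24088, chr3:83836272-83841824) had 3.8 to 39.2 in WT (median 15.0) and 36.0 to 94.8 in the knockout (median 56.7). In both cases knockout M1 fell within the WT range and the other 5 knockout samples lay above it. Cd14 differed by 1.09 ± 0.17 (adjusted p = 0.0367, ratio of means 3.47) and Tlr2 by 0.85 ± 0.15 (adjusted p = 0.0464, ratio 3.55), both above the WT median in 6 of 6 samples. Cd14 passed in 3 of 12 fits without 1 sample and in 6 of 19 others, and Tlr2 in 1 of 12 and 5 of 19. They were the 2 that passed of 35 tested genes of the list of pattern recognition and the inflammasome, of which 20 were higher in the knockout and 7 had an unadjusted p under 0.05, with a median of 0.07 (0.02 centred on the median). Over all tested genes 0.0779% passed, 7.39% had an unadjusted p under 0.05 and 51.7% were higher in the knockout. Nlrp3, the sensor of the best known inflammasome, had 10.7 to 59.9 in WT (median 36.7) and 41.1 to 146.0 in the knockout (median 122.2), a difference of 0.92 ± 0.17 that missed the threshold (adjusted p = 0.0939). It passed with sample weights, with all 18 samples, with the Paneth covariate and without knockout M1. Knockout M1 again lay within the WT range of Nlrp3 and the other 5 above it.

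St18 encodes a zinc finger transcription factor. St18 (Entrez 240690, chr1:6487231-6860940) had 51.0 to 157.4 normalized counts in WT (median 124.5), 303.1 to 495.9 in the Ahrr knockout (median 374.3) and 0.8 to 14.8 in the Ahr knockout (median 4.2). No sample of 1 group overlapped another group, and the order was Ahr knockout, WT, Ahrr knockout. The difference of Ahrr knockout and WT was 1.41 ± 0.18 (adjusted p = 0.00375, ratio of means 3.42, higher in 6 of 6), with a ratio of 3.80 in females and 3.08 in males. In its own fit, which shares the WT samples and in which 8.84% of 11346 genes passed, Ahr knockout minus WT was -1.80 ± 0.18 (adjusted p = 8.2e-06). St18 passed in all 12 fits without 1 sample and in 18 of 20 others. The exceptions are both fits with the mean of the neutrophil list as a covariate (1.09, adjusted p = 0.0767, and 1.21, adjusted p = 0.0717, without the genes that passed).

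This order of the 3 group medians held for 25.8% of the tested genes and for 2 of the 9, St18 and Fam177a2. Among genes that did not pass in the fit of 12 samples, Ahrr, Cyp1b1, Ppbp, Mmp8, S100a6 and Nlrp3 are examples that had it. The AHR targets Tiparp (median 5773.5 in WT and 4336.7 in the Ahrr knockout) and Nqo1 (270.9 and 256.8) did not have it, and neither did Ahr. Ppbp, the chemokine of platelet granules, had 86.6 to 473.4 normalized counts in WT (median 297.5), 550.7 to 919.9 in the Ahrr knockout (median 761.6) and 0.8 to 6.8 in the Ahr knockout. The 6 and 6 values of WT and the Ahrr knockout did not overlap, but the difference of 1.28 ± 0.26 missed the threshold (adjusted p = 0.158). It passed with all 18 samples in the fit (adjusted p = 0.0186) and with the enterocyte covariate (1.61, adjusted p = 0.00147). Mmp8, a collagenase of neutrophil granules, had 21.5 to 61.9 in WT, 51.1 to 148.3 in the Ahrr knockout and 0.0 to 26.4 in the Ahr knockout (Ahrr knockout minus WT 0.66 ± 0.18, adjusted p = 0.429), and it passed with the enterocyte covariate (0.86, adjusted p = 0.0411). Clec4a4, a C-type lectin receptor, did not share the order: 474.8 to 872.2 in WT, 328.1 to 682.0 in the Ahrr knockout and 1.8 to 6.6 in the Ahr knockout (Ahrr knockout minus WT -0.55 ± 0.19, adjusted p = 0.575). Of the other genes that rose in the Ahrr knockout, C3 lay between 23.8 and 93.3 in the Ahr knockout, Cd14 between 42.4 and 125.6, Csf3r between 518.8 and 836.1, Fam177a2 between 93.3 and 374.6, Tlr2 between 25.1 and 51.8 and Hp between 8.0 and 76.3. For Csf3r, Ahr knockout minus WT was 0.59 ± 0.14 (adjusted p = 0.0145), so it also rose in the Ahr knockout, where all samples but F2 lay above the highest WT sample. There C3 (-0.05 ± 0.21, adjusted p = 0.925), Cd14 (0.43 ± 0.14, adjusted p = 0.065), Tlr2 (0.49 ± 0.15, adjusted p = 0.0616) and Fam177a2 (-0.36 ± 0.19, adjusted p = 0.275) did not pass, and Hp had too few counts to be tested.

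Fam177a2 has no function that is well established. Fam177a2 (Entrez 100101807, chr12:55199264-55217168) had 270.5 to 331.0 normalized counts in WT (median 286.7) and 403.9 to 532.8 in the knockout (median 495.6), without overlap. Its difference was 0.63 ± 0.11 (adjusted p = 0.0464, ratio of means 1.67, higher in 6 of 6), and it passed in 1 of 12 fits without 1 sample and 5 of 20 others. Its neighbour Srp54b, a gene of the signal recognition particle, had 29.7 to 51.6 in WT and 73.2 to 151.5 in the knockout (0.75 ± 0.14, adjusted p = 0.108), also without overlap. Srp54a, a close copy next to it, had 156.7 to 295.3 and 207.0 to 416.9 (0.46 ± 0.16, adjusted p = 0.576). Reads can be placed in the wrong copy where copies are nearly identical, so the values of Srp54a and Srp54b are uncertain each on its own.

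**Figure D2:**
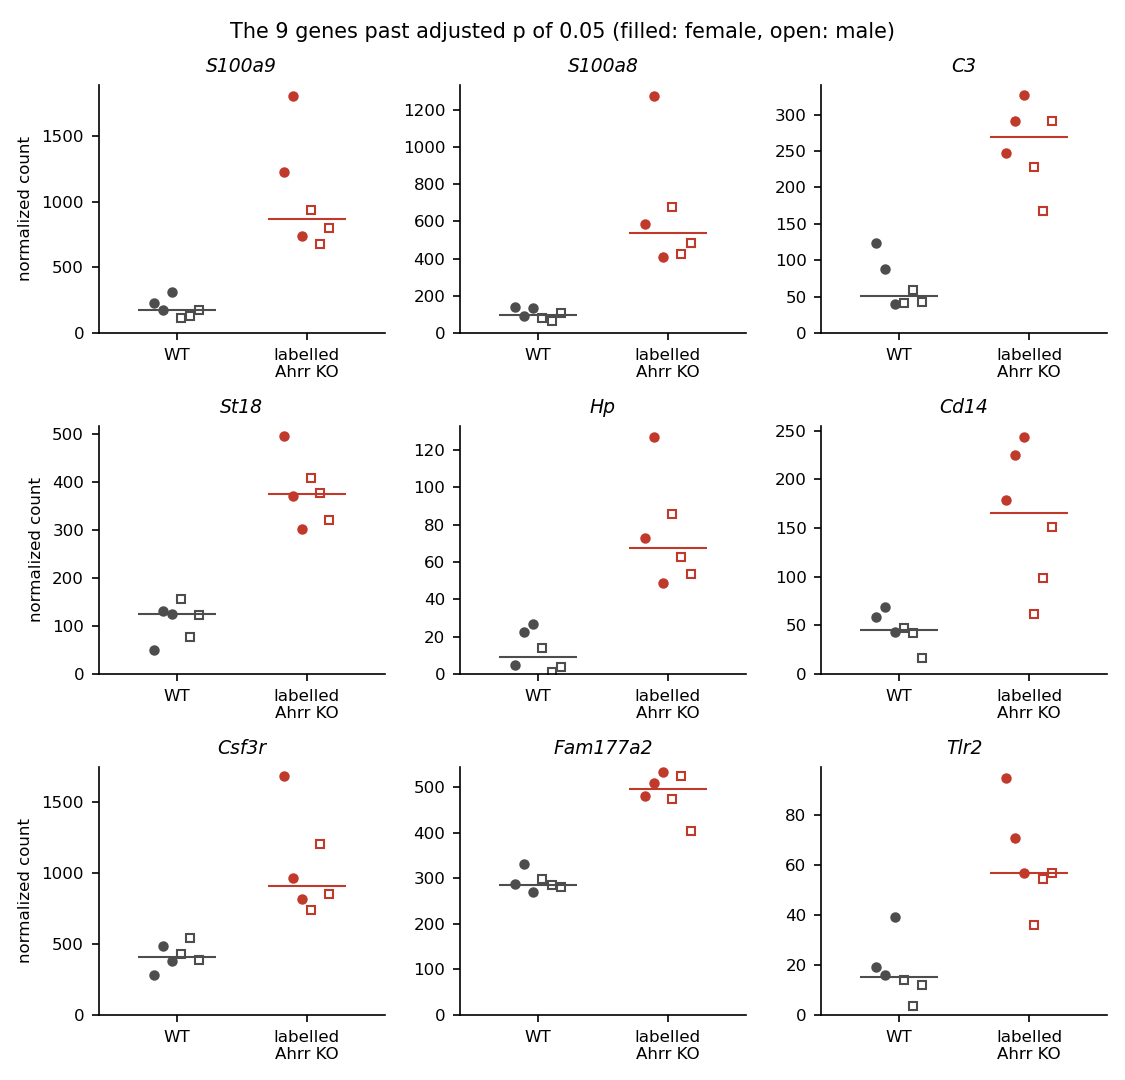
Normalized counts of the 9 genes that passed, in 6 WT and 6 Ahrr knockout samples; filled points are females, open points males, and the line is the median. Only Cd14 and Tlr2 overlap between the groups, each through knockout M1.

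The promoters of S100a8, S100a9 and C3 are shown as those of genes that rose and kept their call in all 12 fits without 1 sample, as St18 also did. They are again 300 bases from RefSeq on GRCm38.p6, at chr3:90668821-90669120 on the plus strand for S100a8, chr3:90695672-90695971 on the minus strand for S100a9 and chr17:57228087-57228386 on the minus strand for C3. Capitals mark TTNNGCAA on either strand, a form of the element that C/EBP factors bind in myeloid genes. S100a9 holds 1 match, 236 bases before the start, C3 holds 1, 45 bases before the start, and S100a8 holds 0. These letters occur in 10.8% of all 27025 promoters and in 8.35% of those of tested genes. GCGTG has 0 matches in the promoters of S100a8, S100a9, C3, Csf3r and Tlr2, the 5 of 9 genes whose promoter was searched. No match says only that the letters are not in this window. The promoters of St18, Hp, Cd14 and Fam177a2 were not searched.
S100a8: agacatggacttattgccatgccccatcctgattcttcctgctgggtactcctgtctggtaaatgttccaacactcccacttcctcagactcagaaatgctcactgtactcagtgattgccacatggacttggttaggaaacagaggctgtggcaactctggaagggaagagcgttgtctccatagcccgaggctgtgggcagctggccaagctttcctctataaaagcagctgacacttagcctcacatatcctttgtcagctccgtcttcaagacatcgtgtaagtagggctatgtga
S100a9: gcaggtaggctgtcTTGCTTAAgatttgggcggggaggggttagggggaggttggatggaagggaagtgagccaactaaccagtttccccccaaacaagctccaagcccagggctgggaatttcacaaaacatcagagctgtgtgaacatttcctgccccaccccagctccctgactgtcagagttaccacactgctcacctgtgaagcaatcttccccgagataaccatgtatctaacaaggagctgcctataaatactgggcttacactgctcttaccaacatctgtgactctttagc
C3: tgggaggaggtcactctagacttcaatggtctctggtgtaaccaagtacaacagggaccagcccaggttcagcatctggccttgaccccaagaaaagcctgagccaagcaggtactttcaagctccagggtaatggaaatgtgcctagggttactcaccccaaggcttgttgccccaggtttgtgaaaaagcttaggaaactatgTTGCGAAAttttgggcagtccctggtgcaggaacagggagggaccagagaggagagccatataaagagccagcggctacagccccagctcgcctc

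S100a8, S100a9 and Csf3r are also on the list of 28 neutrophil genes, so other genes of the list are given as well. Of 16 that could be tested, 13 were higher in the knockout, 3 passed and 8 had an unadjusted p under 0.05, against 0.0779% and 7.39% of all tested genes. The median difference was 0.44, and 0.70 with log2(normalized count + 1) and 0.74 with voom, with 12 of 16 higher in both. In bulk samples, a change in the number of cells of a type and in RNA per cell cannot be told apart. The sum of the list was 30250 to 62193 normalized counts in WT (median 41960) and 29155 to 53793 in the knockout (median 46918). Retnlg, a resistin-like protein, made up 76.8% of it, and it was abundant in all 18 samples. It had 23350.2 to 48259.0 in WT and 22535.1 to 43355.8 in the knockout (-0.07 ± 0.27, adjusted p = 0.941). Mmp9, a gelatinase, had 3393.6 to 4227.6 and 1963.8 to 6147.8 (-0.07 ± 0.23, adjusted p = 0.934), and Padi4, which converts arginine in histones, 234.1 to 610.9 and 140.1 to 632.9 (-0.21 ± 0.23, adjusted p = 0.786).

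The list held both genes near 0 and genes with clear counts. Ly6g, the surface marker of neutrophils, was at 0.0 to 8.3 normalized counts in WT and 0.0 to 9.7 in the knockout. Elane, the elastase of their primary granules, was at 0.0 in all WT samples and reached 8.6 in knockout F2, with 0.0 in the other 5. Prtn3 and Stfa3 also had at most 10 counts in each sample. Ngp, a granule protein made in neutrophil precursors, lay between 9.5 and 45.4 in WT, between 4.9 and 10.1 in knockout F3, M1, M2 and M3, slightly higher in F1 and at 431.9 in F2. Camp, the cathelicidin, had 202.0 in knockout F2 and 1.6 or less in the other 5, and Mpo, the myeloperoxidase, had 39.2 in WT F3 and 12.9 in knockout F2. Lcn2, lipocalin 2, had 0.0 to 28.9 in WT, 173.0 in knockout F2 and 20.3 to 41.9 in the other knockout samples (0.96 ± 0.26, adjusted p = 0.429).

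S100a8 and S100a9 can be set beside these genes sample by sample. In the 5 knockout samples other than F2, S100a8 lay between 407.2 and 675.3, above the highest WT sample at 138.9, which was WT F1 with Ngp at 9.5. WT F3, with Ngp at 45.4, had S100a8 at 132.2. Among the Ahr knockout samples, F3 had Ngp at 215.8 and S100a8 at 719.2, and the other 5 had Ngp at 4.2 to 13.2 and S100a8 at 56.8 to 137.8. Without WT F3 and knockout F2 together, S100a9 (2.05, adjusted p = 0.000412), S100a8 (1.91, 0.000825), C3 (1.33, 0.0139) and St18 (1.44, 0.0388) passed, 4 genes in all. Other genes of the list lay higher in the knockout without passing. Cd177, a neutrophil surface protein, had 8.4 to 33.2 in WT and 21.1 to 135.0 in the knockout (0.70 ± 0.22, adjusted p = 0.502). Trem1, an activating receptor of myeloid cells, had 89.5 to 285.0 and 154.2 to 481.3 (0.49 ± 0.21, adjusted p = 0.658). Both genes overlapped between the groups. Cxcr2, a chemokine receptor, had 430.2 to 576.8 in WT and 516.8 to 1014.7 in the knockout (0.50 ± 0.15, adjusted p = 0.502). Stfa2l1, a stefin with too few counts to be tested, had 0.0 to 4.1 in WT and 10.6 to 21.5 in the knockout, without overlap. Asprv1, a protease also too low to be tested, had a median of 4.8 in WT and 28.4 in the knockout, with overlap.

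A fit with the mean of the neutrophil list as a covariate left the differences of S100a9 at 1.56, of S100a8 at 1.41 and of C3 at 1.72, each with an adjusted p of 0.0499. The list holds S100a8, S100a9 and Csf3r themselves. With these 3 genes taken out of the mean, S100a9 differed by 1.78 (adjusted p = 0.004), S100a8 by 1.67 (0.00699) and C3 by 1.61 (0.00699). Csf3r was at 1.05 (0.101) with the whole list and 1.11 (0.0936) with the shorter one. Hp, which is not on the list, went from 1.21 to 0.63 (0.163) with the whole list and to 0.84 (0.0893) with the shorter one.

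**Figure D3:**
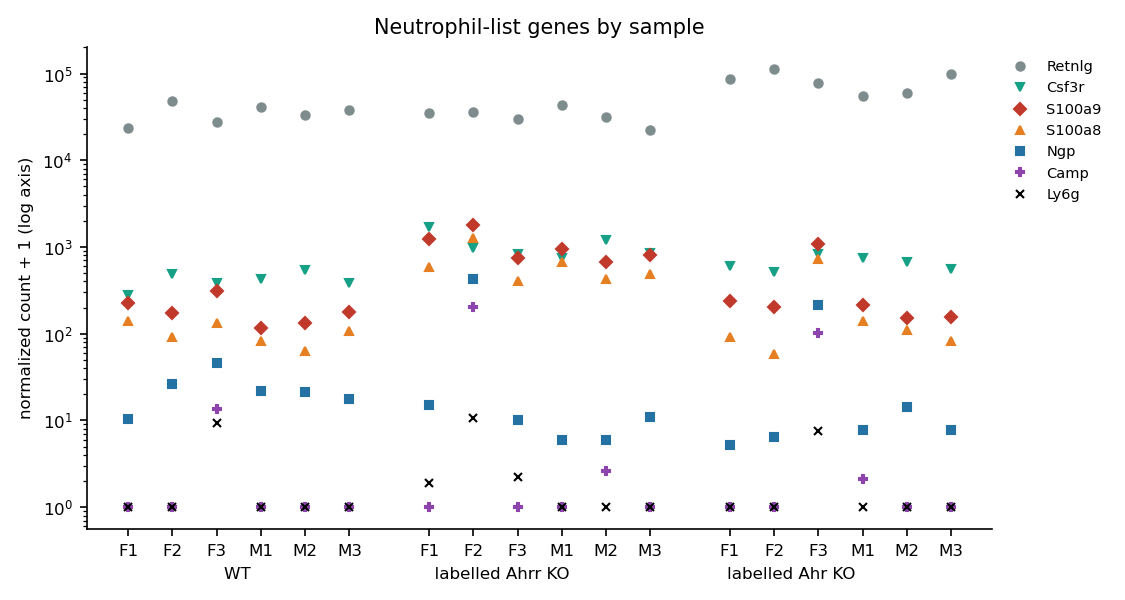
Normalized counts plus 1 on a log axis of 7 genes of the neutrophil list in each of the 18 samples. Retnlg is high in all samples; S100a8 and S100a9 lie higher in the 6 Ahrr knockout samples than in WT, while Ngp and Camp are high in Ahrr knockout F2 and Ahr knockout F3.

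Transcripts on the lists of epithelial markers were counted in all 12 samples and were higher in part of the knockout samples. Which cells they came from was not tested. The sum of 25 enterocyte markers was 9001 to 34445 normalized counts in WT (median 14435) and 10460 to 53351 in the knockout (median 36402). Knockout F3, M1 and M3 lay at 48521, 53351 and 51343, above all WT samples, M2 lay at 24283, and F1 and F2 lay at 10460 and 10917, under 5 of 6 WT samples. All 25 markers were higher in the knockout by their fitted difference, with a median of 0.67, but 0 passed by limma and 7 had an unadjusted p under 0.05, against 7.39% of all tested genes. Sis, the sucrase of the brush border and the most abundant at 12.9% of the sum, differed by 0.79 ± 0.51 (adjusted p = 0.683), and Apoa1, an apolipoprotein, by 1.37 ± 0.54 (adjusted p = 0.617). The 9 goblet cell markers, led by the mucin Muc2, summed to 7395 to 20682 in WT (median 11021) and 4249 to 45907 in the knockout (median 22436). Of the 8 goblet markers tested, 8 were higher in the knockout, with a median of 0.62, 0 passed and 0 had an unadjusted p under 0.05.

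Paneth cell genes, the antimicrobial products of the crypt base, had a median difference of 1.46. All 11 were tested and higher in the knockout; 0 passed by limma and 10 had an unadjusted p under 0.05, against 7.39% of all tested genes. The sum was 1967 to 15591 in WT (median 6358) and 8746 to 77568 in the knockout (median 19149). Knockout M1 was far the highest, knockout F1 and F2 lay under WT M3, and the other 4 knockout samples lay above all WT samples. Lyz1, the Paneth lysozyme and 48.8% of the sum, had 1013.6 to 8013.4 in WT and 4927.3 to 35280.8 in the knockout (1.93 ± 0.47, adjusted p = 0.323). The alpha-defensin Defa30 differed by 2.06 ± 0.53 (adjusted p = 0.387) and the lectin Itln1 by 1.46 ± 0.38 (adjusted p = 0.387). With the neutrophil covariate 31 genes passed, among them Itln1 (2.5, adjusted p = 0.0499) and Defa21 of this list and Agr2, Clca1 and Zg16 of the goblet list. With S100a8, S100a9 and Csf3r taken out of that covariate 4 genes passed, and Itln1, Defa21, Agr2, Clca1 and Zg16 were not among them.

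The sums of other marker lists also varied between samples. Macrophage and dendritic cell markers summed to 3011 to 6308 in WT (median 3994) and 2527 to 13643 in the knockout (median 12097). Knockout F1 was under all WT samples, and the other 5 knockout samples, from 8991 up, were above all WT samples. Of 18 tested, 17 were higher in the knockout, with a median of 0.61 (1.01 with voom, 18 of 18 higher), 0 passed by limma and 7 had an unadjusted p under 0.05, against 7.39% of all tested genes. Lyz2, the lysozyme of myeloid cells and 31.8% of the sum, differed by 1.90 ± 0.50 (adjusted p = 0.397). The apolipoprotein gene Apoe differed by 1.41 ± 0.40 (adjusted p = 0.454), the complement gene C1qb by 1.17 ± 0.31 (adjusted p = 0.415) and Ms4a7 by 0.76 ± 0.16 (adjusted p = 0.198). Without knockout F1 the number of genes that passed went from 9 to 25, and Lyz2, Apoe, C1qb, Ms4a7 and Ctsc, a lysosomal protease, were among the 17 added. Ms4a7 also passed with sample weights.

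B and plasma cell markers summed to 799 to 2284 in WT and 852 to 6841 in the knockout, with F2, F3, M1 and M3 above all WT samples. Jchain, the joining chain of secreted antibodies and 72.3% of the sum, differed by 1.90 ± 0.68 (adjusted p = 0.603), and 5 of 5 tested were higher in the knockout (4 of 5 centred on the median, with quantile normalization or with voom; 0 passed by limma, 4 unadjusted). Over all tested genes 7.39% had an unadjusted p under 0.05. Fibroblast markers summed to 367 to 905 in WT and 363 to 2648 in the knockout, with F3, M1 and M3 above all WT samples. Of 10 tested, 10 were higher in the knockout (0 passed, 3 unadjusted; median 0.55, and 1.17 with voom), and Dcn, the matrix proteoglycan decorin, differed by 1.20 ± 0.48 (adjusted p = 0.617). Acta2, smooth muscle actin and the most abundant at 22.9% of that sum, differed by 0.53 ± 0.28 (adjusted p = 0.671). Pancreatic acinar markers went the other way, but not in every sample: they summed to 83 to 4702 in WT and 91 to 2710 in the knockout. WT M1 (83) and M2 (189) were low, and knockout M1 (2710) lay above all WT samples but M3. Of 10 tested, 9 were higher in WT (0 passed by limma, 5 unadjusted), with a median of -1.0 (-2.71 with log2(normalized count + 1), -2.97 with voom and -1.75 with thinned counts). Ctrb1, a chymotrypsinogen and 28.1% of the sum, differed by -2.17 ± 0.79 (adjusted p = 0.603). With the Paneth covariate Ctrb1 (-4.67, adjusted p = 0.0156), Cel, Pnlip and Cela1 of this list passed.

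Endothelial markers summed to 2646 to 3960 in WT and 2086 to 3923 in the knockout, 90.7% of it Pecam1, which eosinophils also carry (-0.30 ± 0.19, adjusted p = 0.682). Of 9 tested, 7 were higher in the knockout, 0 passed and 2 had an unadjusted p under 0.05. For all tested genes the shares were 51.7% higher in the knockout, 0.0779% passed and 7.39% with an unadjusted p under 0.05. Mast cell and basophil markers summed to 779 to 8543 in WT and 1494 to 8859 in the knockout, 89.2% of it Hdc, the histidine decarboxylase (0.19 ± 0.45, adjusted p = 0.905). Of 4 tested, 3 were higher in the knockout and 0 had an unadjusted p under 0.05. Markers of T and innate lymphoid cells summed to 177 to 469 in WT and 267 to 445 in the knockout, led by Kit (0.20 ± 0.19, adjusted p = 0.757); 3 of 5 tested were higher in the knockout, with 2 of 5 when centred on the median or with quantile normalization and 4 of 5 with voom or thinned counts, 0 passed and 1 had an unadjusted p under 0.05. Erythroid and platelet markers did not overlap between the groups, with sums of 259 to 729 in WT and 730 to 1158 in the knockout, but 72.5% of the sum was Ppbp.

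**Figure D4:**
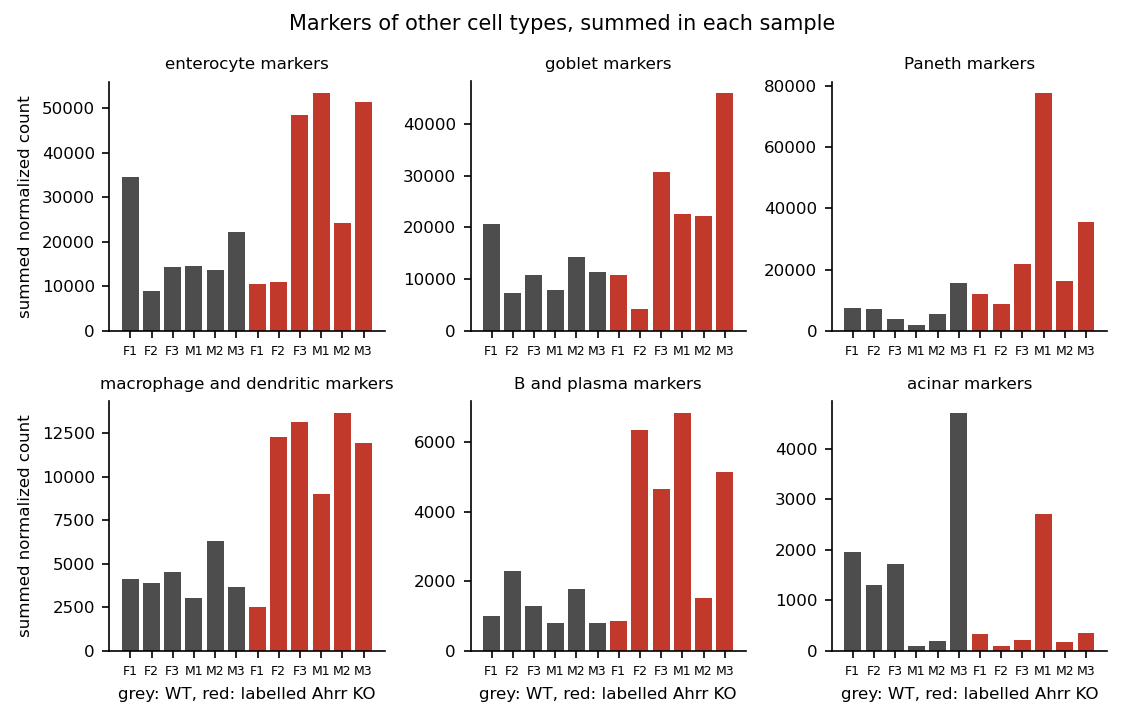
Bars give the summed normalized counts of 6 marker lists in each of the 12 samples, grey for WT and red for the Ahrr knockout. Enterocyte sums are highest in knockout F3, M1 and M3, and the macrophage and dendritic sum of knockout F1 is under all WT samples.

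The genes that rose can be read against these sums in single samples. Knockout F1 had the lowest macrophage and dendritic sum of the 12 samples (2527) and an enterocyte sum of 10460, under 5 of 6 WT samples. It had S100a9 at 1225.4, S100a8 at 584.6, C3 at 247.5, St18 at 495.9 and Csf3r at 1681.8, each above all WT samples. WT F1 had the highest enterocyte sum in WT (34445), above those of knockout F1, F2 and M2, and had S100a9 at 227.9 and St18 at 51.0, while its C3 of 123.4 was the highest in WT. WT M3 had the highest Paneth sum in WT (15591), above those of knockout F1 and F2, and had S100a9 at 176.7 and C3 at 43.0. Without knockout F3, M1 and M3 together, 4 genes passed: S100a9 (2.21, adjusted p = 0.000761), S100a8 (2.16, 0.0028), St18 (1.54, 0.0386) and Csf3r (1.5, 0.0243). C3 did not (1.24, 0.109). The enterocyte covariate left all 9 genes past the threshold, among 16 in all, with C3 at 1.28 (adjusted p = 0.00133). With the macrophage covariate S100a9, S100a8 and St18 passed and C3 did not (1.39, 0.0551), and with the Paneth covariate C3 was at 1.21 (0.0877). The part of the other marker lists in these differences was not tested.

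The main axis of variation spread the knockout samples among themselves. Over the 500 most variable genes, the first principal component held 55.8% of the variance and the second 13.8%. The largest weights (loadings) on the first were those of Xist (-0.134), Fabp6 (0.099), Reg3b (0.084) and Apoa1 of the enterocyte list (0.083). The Y-linked Ddx3y had 0.07, so genes that differ by sex and epithelial genes both entered this axis. Knockout M3 (25.11), M1 (20.50) and F3 (15.14) had the highest scores on the first, and knockout F2 (-18.42), WT F2 (-16.16) and knockout F1 (-15.55) the lowest, so all 6 WT samples lay within the range of the knockout samples.

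Genes that make eosinophils what they are did not pass in either direction. Of 35 identity genes 34 were tested: 9 were higher in the knockout and 25 in WT, with a median of -0.18, 0 passed by limma and 3 had an unadjusted p under 0.05. Among all tested genes 51.7% were higher in the knockout, 0.0779% passed and 7.39% had an unadjusted p under 0.05. Siglecf, the lectin of the sort gate, had 1619.0 to 2305.5 in WT and 836.8 to 2272.4 in the knockout (-0.35 ± 0.20, adjusted p = 0.673), lowest in knockout M3. Ccr3, the eotaxin receptor, had 8965.2 to 14973.8 and 5285.6 to 15550.7 (-0.29 ± 0.26, adjusted p = 0.754), also lowest in M3, and Il5ra, the IL-5 receptor, differed by -0.40 ± 0.21 (adjusted p = 0.671). These markers were thus present in all 12 samples. Of 15 listed genes of granule proteins 8 are in the table, and only Prg2, the major basic protein, had enough counts to be tested, at 48.7 to 135.9 in WT and 36.0 to 189.1 in the Ahrr knockout (0.23 ± 0.21, adjusted p = 0.750). Epx, the eosinophil peroxidase, lay between 3.2 and 23.6. In the Ahr knockout, Prg2 lay between 324.5 and 924.7, above all WT and Ahrr knockout samples (Ahrr knockout minus Ahr knockout -2.07 ± 0.21, adjusted p = 1.2e-06).

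**Figure D5:**
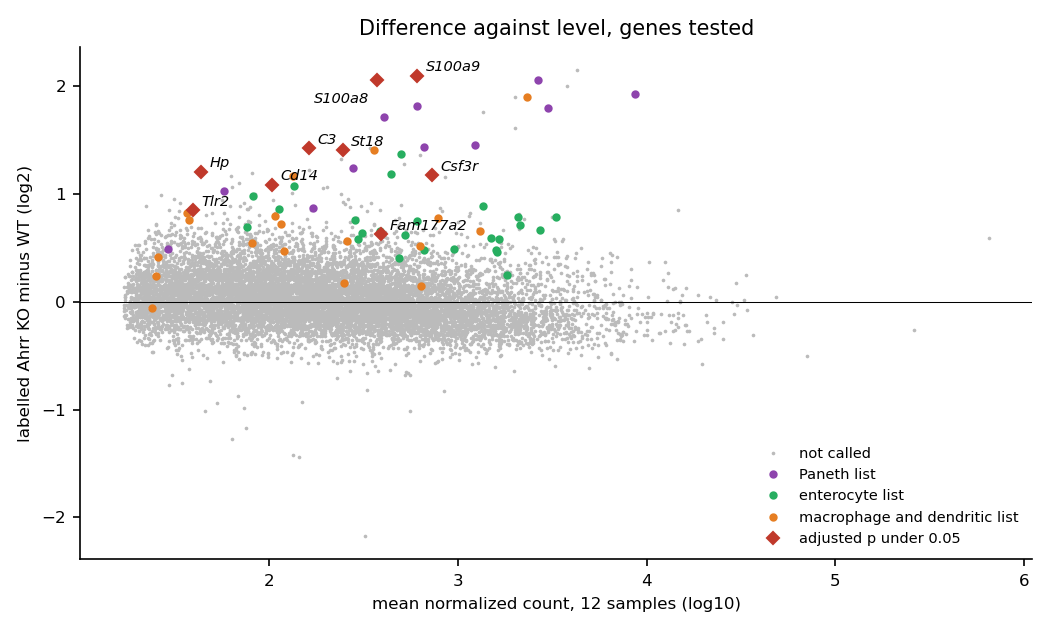
Difference (Ahrr knockout minus WT, log2 scale as deposited) against the mean normalized count of the 12 samples on a log10 axis, 1 point for each of the 11546 genes tested. Diamonds are the 9 genes that passed; Paneth, enterocyte and macrophage and dendritic genes, in colour, lie mostly above 0.

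S100a6, Wfdc17 and Nnt did not overlap between the groups and did not pass. S100a6, which lies near S100a8 and S100a9, had 135.5 to 210.1 in WT and 258.9 to 558.8 in the knockout, without overlap (0.88 ± 0.16, adjusted p = 0.0924). Wfdc17, a small secreted protein with a WAP domain known from macrophages, had 1.6 to 12.8 and 18.3 to 58.6, without overlap (0.89 ± 0.17, adjusted p = 0.0924). Nnt, the mitochondrial transhydrogenase whose function some C57BL/6 substrains lack, had 371.5 to 548.5 in WT and 606.7 to 908.5 in the Ahrr knockout, without overlap (0.64 ± 0.13, adjusted p = 0.174). Nnt passed with all 18 samples in the fit (0.64, adjusted p = 0.0233) and with the enterocyte covariate (0.74, adjusted p = 0.0256). S100a6 and Wfdc17 passed with sample weights, Wfdc17 also with all 18 samples, and both without knockout F1. In the Ahr knockout Nnt was at 945.9 to 1209.2, and in the limma fit Ahr knockout minus WT was 1.11 ± 0.11 (adjusted p = 5.2e-06). Nnt (chr13:119335527-119409257) lies on the chromosome of Ahrr (chr13:74211118-74292331), but outside the windows around Ahrr that are given below. Ahr lies on chromosome 12. The part of position in the difference of Nnt was not tested. No substrain is given for any group, so substrain and genotype cannot be told apart.

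In the direction of WT, 9530077C05Rik had 233.8 to 334.2 normalized counts in WT and 114.8 to 206.3 in the knockout, without overlap (-0.71 ± 0.14, adjusted p = 0.119). It passed with sample weights, with all 18 samples and without knockout F1. It also was at 146.1 to 214.1 in the Ahr knockout, under all WT samples. The interferon-inducible 9930111J21Rik2 had 800.0 to 1302.3 in WT and 415.6 to 885.7 in the knockout (-0.83 ± 0.18, adjusted p = 0.218), with knockout F1 alone in the WT range, and passed without that sample. Cd22, an inhibitory lectin best known from B cells, had 548.4 to 1092.8 in WT and 191.0 to 583.4 in the knockout (-1.01 ± 0.22, adjusted p = 0.235), with knockout F2 alone in the WT range. It passed with sample weights and with the neutrophil covariate. Cd22 is not on the B cell list used here, and which cells its transcript came from was not tested.

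The difference between genotypes was then compared between the sexes. In the limma fit with an interaction of genotype and sex, 0 of 11546 genes passed, and 544 (4.71%) had an unadjusted p under 0.05. The count was also 0 in each of 23 alternatives, voom among them. With 3 samples in each cell, this does not show that the sexes responded alike. Among the 9 genes that rose, each had a ratio of means above 1 in both sexes. They were picked by their rise in these same samples, so these ratios are no independent evidence on the sexes. The smallest unadjusted interaction p of the 9 was 0.225 for Cd14, with a ratio of 3.80 in females and 2.94 in males. Cyp1b1, Tiparp and Ahr had ratios on opposite sides of 1, at 1.96 in females and 0.858 in males, 1.24 and 0.66, and 1.10 and 0.686. Ahrr (1.51 and 1.04) and Nqo1 (1.05 and 1.20) were above 1 in both sexes. The unadjusted limma p of the interaction was 0.0399 for Cyp1b1, 0.151 for Tiparp, 0.283 for Ahr, 0.155 for Ahrr and 0.721 for Nqo1, and none passed after adjustment.

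No gene near Ahrr passed; over all tested genes 0.0779% passed and 7.39% had an unadjusted p under 0.05. Within 5 Mb 36 genes were tested, Ahrr among them: 0 passed by limma, 2 had an unadjusted p under 0.05, and 19 were higher in the knockout, with a median of 0.02. Within 10 Mb 73 genes were tested, again with Ahrr, of which 0 passed, 8 had an unadjusted p under 0.05 and 34 were higher in the knockout. The 9 genes lay on 7 chromosomes, with 3 on chromosome 3: S100a8, S100a9 and Tlr2. Within 1 Mb of S100a9 30 other genes were tested, of which 1 passed (S100a8) and 4 had an unadjusted p under 0.05.

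None of the genes on the lists in this paragraph passed; over all tested genes 7.39% had an unadjusted p under 0.05 and 51.7% were higher in the knockout. Of 36 immediate early genes, which handling of cells can induce, 25 were higher in the knockout, with a median of 0.14, 0 passed by limma and 4 had an unadjusted p under 0.05. Of 28 heat shock genes tested, 19 were higher in the knockout (median 0.10, 0 passed, 0 unadjusted), and of 20 NF-kB pathway genes 16 (median 0.19, 0 passed, 4 unadjusted). For the unfolded protein response 24 of 28 were higher in the knockout (median 0.12, 0 passed, 2 unadjusted), and for NRF2 targets 22 of 29 (median 0.18, 0 passed, 1 unadjusted). Interferon-stimulated genes were higher in WT in 33 of 57 (median -0.06, 0 passed, 10 unadjusted). Of 32 genes of the matrix and its proteases 19 were higher in the knockout (median 0.18, and 0.35 with log2(normalized count + 1), 0 passed, 8 unadjusted). Of 27 cytokine and chemokine genes 18 were higher in the knockout (median 0.05, 0 passed, 4 unadjusted). These medians moved with scaling: centred on the median they were 0.06 for heat shock and 0.01 for cytokine and chemokine genes, and with quantile normalization 0.09 for immediate early, 0.11 for matrix and -0.12 for interferon-stimulated genes.

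The genes of protein synthesis and respiration lay slightly higher in the knockout as groups. So did the enterocyte, Paneth and macrophage and dendritic markers above, with medians of 0.67, 1.46 and 0.61. The part of those markers' cells in these groups was not tested. Of 79 cytosolic ribosomal protein genes 78 were higher in the knockout, with a median of 0.28, and of 77 genes of oxidative phosphorylation 75, also with a median of 0.28. By limma 0 passed in both groups, with 0 and 5 at an unadjusted p under 0.05. Over all tested genes that share was 7.39%, and 51.7% were higher in the knockout. Of 76 mitochondrial ribosomal protein genes 60 were higher in the knockout (median 0.16, 0 passed, 3 unadjusted). Under 5 other scalings of the data the medians lay between 0.24 and 0.31 for cytosolic ribosomal proteins, between 0.24 and 0.33 for oxidative phosphorylation and between 0.11 and 0.27 for mitochondrial ribosomal proteins, each in the same direction. Of 38 cell cycle genes 29 were higher in the knockout (median 0.16, and 0.31 with voom, 0 passed, 0 unadjusted), and of 11 histone genes 11 (10 centred on the median or with thinned counts; median 0.39, 0 passed, 2 unadjusted).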

How the data were processed

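The authors' deposited table holds variance-stabilized expression on a log2 scale for 22708 genes. According to the paper's methods and the submitters' processing notes, the authors made it with nf-core/rnaseq, STAR 2.5.2, RSEM 1.3.0, DESeq2 and R 4.0.3 from single-ended reads. A gene without counts has the lowest value, 5.02. Inverting the transformation gave whole counts for 100% of values (tolerance 0.0001). Genes were matched by Entrez ID, 22685 of 22708 to a RefSeq gene. The 6 WT and 6 Ahrr knockout samples were fitted with limma 3.58.1 in R 4.3.3 (linear model per gene, genotype and sex, empirical Bayes with a mean-variance trend), over genes with a mean at least 1 above the lowest value. P-values were adjusted by Benjamini-Hochberg. On this scale a gene with few counts shows less than its log2 ratio. The fit was also run on simulated counts with known changes. Those counts held no variation in cell content between samples, so that run does not give the error rate in these samples. Python 3.11.15 with pandas 2.3.3, numpy 2.4.6 and matplotlib 3.10.9 made tables and figures. A total of 43 gene lists were described by counts and medians, with no test of a list.

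The members and lists were chosen with earlier results of these data known. The rule for naming genes took Ahrr, Ahr, 4 classic targets, genes past the threshold, the most abundant gene of each marker list, Xist, Ddx3y and Nnt. The other genes named were chosen after their values were seen. Alternatives varied the minimum mean, scaling, variance model, covariates, samples, scale and depth, and left out each sample in turn; 5 were chosen after seeing the data.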

Additional observations from a re-analysis of the deposited data

Results flagged for a closer look

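In a group of 6 samples, a sample was singled out when its gap to the nearest other sample was a large share of the whole range of the group (Dixon's criterion). Of 146 groups examined 9 had such a sample, and chance gives about 1 in 20. Values of genes are on the deposited log2 scale. In the Ahrr knockout, F2 was far above the other samples for Ngp, at 8.95 against 5.58 to 5.95, and for Lcn2, at 7.87 against 6.13 to 6.58. Knockout F1 was far below the others for Apoe, at 6.83 against 9.13 to 9.92, for C1qb, at 6.24 against 8.0 to 8.55, and for Ctsc, at 8.16 against 9.13 to 9.48. The summed macrophage and dendritic markers of knockout F1 were 2527 normalized counts against 8991 to 13643. Knockout M1 was far above the others for Ctrb1, at 9.28 against 5.02 to 6.44. In WT, F1 was low for Clec4a4, at 9.07 against 9.68 to 9.87, and F3 had a count for 20244 genes against 15146 to 16526. The causes were not tested.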

How the results depend on the processing

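The count of 9 genes that passed, all higher in the Ahrr knockout, was 8 without the trend, 9 with robust estimation, 7 without the sex covariate and 6 with thinned counts. It was 4 with no minimum mean, 5 with a minimum of 3 above the lowest value, 4 centred on the median, 5 with quantile normalization, 4 with log2(normalized count + 1) and 4 with voom. S100a9, S100a8 and St18 passed in each of these, and C3 in each that tested it. With sample weights 18 passed (15 higher in the knockout, 3 in WT) and with all 18 samples in the fit 14 (1 higher in WT). The shared number as a replicate block in place of sex gave 4, and the differences of samples that share a number were correlated between -0.739 and 0.334, so nothing in the values shows that they belong together. The enterocyte covariate gave 16 (16 higher in the knockout), and the neutrophil covariate 31 (30 higher in the knockout, 1 in WT), 3 of them among the 9. Of the 28 added, Itln1 and Defa21 are on the Paneth list and Agr2, Clca1 and Zg16 on the goblet list. Among alternatives chosen after seeing the data, leaving out WT F3 and knockout F2 gave 4, leaving out knockout F3, M1 and M3 gave 4, the macrophage covariate 3, the Paneth covariate 13 (5 higher in WT, of which Ctrb1, Cel, Pnlip and Cela1 are on the acinar list), and the neutrophil covariate without the genes that passed 4. Leaving out each sample in turn gave 4 to 25 (4 to 23 higher in the knockout, 0 to 2 in WT), with 25 without knockout F1. Without WT F1, F2, M2 or M3, or knockout F2, M2 or M3, it was 4; without knockout F3, 5; without WT F3, 6; and without WT M1 or knockout M1, 7. The cause was not tested.

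Some genes that did not pass changed sign without passing. With the neutrophil covariate the difference was -0.01 for Ahrr, -0.31 for Cyp1b1, -0.43 for Hdc, -1.63 for Ngp, -0.15 for Trem1 and -0.27 for Prg2. With that covariate less the genes that passed, it was -0.03 for Cyp1b1, -0.23 for Hdc, -0.99 for Ngp and -0.09 for Prg2. With the enterocyte covariate it was 0.16 for Ahr, 0.24 for Tiparp, -0.10 for Sis, -0.13 for Muc2, 0.09 for Retnlg, 0.13 for Mmp9, 0.07 for Padi4 and 0.01 for Ccr3. Without knockout F3, M1 and M3 it was 0.16 for Ahr, 0.27 for Tiparp, -0.29 for Sis, -0.08 for Muc2, 0.02 for Retnlg, 0.19 for Mmp9, 0.14 for Padi4 and 0.03 for Ccr3. With the macrophage covariate it was 0.15 for Ahr, 0.16 for Tiparp, -0.18 for Muc2, 0.14 for Retnlg, 0.10 for Mmp9, 0.07 for Padi4, -0.01 for Ngp and 0.08 for Ccr3. With the Paneth covariate it was 0.31 for Ahr, 0.51 for Tiparp, -0.08 for Nqo1, -0.27 for Sis, -0.02 for Muc2, 0.09 for Mmp9, 0.11 for Padi4, -0.18 for Acta2 and -0.17 for Apoa1. Ngp was at -0.21 with sample weights, -0.34 with log2(normalized count + 1) and -0.22 with voom. Leaving out each sample in turn gave -0.01 to 0.20 for Nqo1, -0.00 to 0.82 for Muc2, -0.18 to 0.05 for Retnlg, -0.23 to 0.11 for Mmp9, -0.11 to 0.53 for Hdc and -0.05 to 0.29 for Ngp. The cause was not tested.

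With counts thinned to the smallest total, Hp passed (2.14, adjusted p = 0.021), and Cd14, Tlr2 and Fam177a2 did not. The interaction count was 0 in all 23 alternatives. The differences between both knockouts kept their sign in all 16 alternatives for Ahrr, Cyp1b1, Tiparp, Nqo1 and Ahr.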

Other observations

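Further lists of genes were counted in the same way; 0 of their tested members passed by limma. Over all tested genes 7.39% had an unadjusted p under 0.05 and 51.7% were higher in the knockout. For adhesion molecules and integrins 17 of 36 were higher in the knockout (median -0.01, 4 with an unadjusted p under 0.05), with a median of 0.01 under quantile normalization. For the BCL2 family and apoptosis the figure was 12 of 30 (median -0.08, 2 unadjusted), for MHC and antigen presentation 12 of 27 (-0.07, 1 unadjusted), and for the NADPH oxidase 2 of 8 (-0.13, 0 unadjusted). For enzymes and receptors of lipid mediators it was 11 of 25 (-0.04, 2 unadjusted). For glycolysis and hypoxia 23 of 34 were higher in the knockout (0.06, 1 unadjusted), for cholesterol synthesis 26 of 37 (0.08, 2 unadjusted), for the proteasome 33 of 49 (0.09, 2 unadjusted) and for the vacuolar ATPase 10 of 15 (0.06, 1 unadjusted). For solute carriers it was 136 of 205 (0.10, 15 unadjusted), for the circadian clock 9 of 14 (0.05, 1 unadjusted) and for Reg and trefoil genes 5 of 7 (0.36, 1 unadjusted). Erythroid and platelet markers had 2 of 4 higher in the knockout (0.14, 2 unadjusted). These medians moved with scaling. Centred on the median they were -0.06 for adhesion molecules, -0.13 for the BCL2 family, -0.11 for MHC, 0.01 for glycolysis and for the vacuolar ATPase, 0.03 for cholesterol synthesis, 0.04 for the proteasome, 0.05 for solute carriers and 0.00 for the circadian clock. With voom they were 0.12 for the circadian clock, 0.43 for erythroid and platelet markers and -0.11 for lipid mediators.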
